A study of Mus musculus with 12 samples.

Results

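The genes described here are the interferon regulatory factors, the Janus kinases (JAKs), the signal transducers and activators of transcription (STATs), their inhibitors of the SOCS and PIAS families, and the receptor chains that feed them. They were chosen by a rule on gene symbols, with earlier results of these data known. The symbols were Irf, Stat, Jak, Socs and Pias followed by a number, with Tyk2, Cish, Ifnar1, Ifnar2, Ifngr1, Ifngr2, Il6st, Lifr and Osmr. The rule gave 39 of the 18255 genes listed in at least 1 library: 7 receptor chains, 4 JAKs, 7 STATs, 9 IRFs, 8 SOCS family genes with Cish, and 4 PIAS genes. Of these, 36 had enough reads to be tested.

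The study sequenced RNA from 3T3-L1 cells, a mouse preadipocyte line, in 4 groups of 3 libraries. Differentiated LIGHT cells carried overexpressed Tnfsf14, the gene of the TNF superfamily cytokine LIGHT, and had been through beige differentiation. Undifferentiated LIGHT cells carried the same overexpression and were not induced. Differentiated control cells and undifferentiated control cells were the same line labelled control (NC), with and without differentiation. Differentiation began with 48 h of dexamethasone at 2 µg/ml, IBMX at 0.5 mM, rosiglitazone at 1 µM, triiodothyronine at 1 nM, insulin at 5 µg/ml and indomethacin. Maintenance medium then held rosiglitazone, triiodothyronine and insulin. The day of harvest, the vector, its promoter, and whether each line was a clone or a pool do not appear in the sources used here. The labels do not say whether replicates were grown separately. The p-values therefore measure the spread between these libraries, which may be technical.

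In the JAK-STAT pathway a cytokine brings receptor chains together, the JAKs bound to them become active, and the STATs they phosphorylate enter the nucleus. Type I interferon acts through IFNAR1 and IFNAR2, TYK2 and JAK1, and drives a complex that holds STAT2 and IRF9 to the interferon-stimulated response element (ISRE), while interferon gamma drives STAT dimers to the gamma-activated site (GAS). SOCS proteins and CISH are made in response to the signal and dampen it, and PIAS proteins bind STATs and attach SUMO. In adipocytes STAT5A and STAT5B are known for their abundance in the mature cell and for carrying growth hormone signals.

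Promoters were searched for these 2 elements because the members include both the factors that read them and genes known to respond to them. The windows were the 250 bases upstream of each RefSeq start (GRCm38.p6), and 31 of the 39 members had at least 1, giving 39 windows. The ISRE was searched as GAAA, any 2 bases and GAAA, and the GAS as TTC, any 3 bases and GAA, on both strands, and no match of one overlapped a match of the other. An ISRE match was present in 4 windows (10.3%), against 2.98% of all 32851 windows of that length, and a GAS match in 5 windows (12.8%), against 7.02% of all windows. Matches fell in the windows of 8 members: Stat4, Irf2, Irf8, Stat2, Irf1, Socs3, Socs1 and Ifnar2. A match is a description of the letters and not a measured site. Of these 8 windows, 4 are printed below, those of a STAT that fell, an IRF that was not called with differentiation and 2 SOCS genes, 5′ to 3′ on the gene's strand with the matching bases in capitals. The Stat2 window, at chr10:128270248-128270497 on the + strand, holds an ISRE match on the opposite strand from 222 to 213 bases upstream. In the Irf1 window, at chr11:53769764-53770013 on the + strand, a GAS match lies from 90 to 82 bases upstream. The Socs3 window, at chr11:117969367-117969616 on the − strand, has a GAS match from 154 to 146 bases upstream. The Socs1 window, at chr16:10785537-10785786 on the − strand, has 2 ISRE matches that overlap each other, from 83 to 74 and from 77 to 68 bases upstream.
Stat2: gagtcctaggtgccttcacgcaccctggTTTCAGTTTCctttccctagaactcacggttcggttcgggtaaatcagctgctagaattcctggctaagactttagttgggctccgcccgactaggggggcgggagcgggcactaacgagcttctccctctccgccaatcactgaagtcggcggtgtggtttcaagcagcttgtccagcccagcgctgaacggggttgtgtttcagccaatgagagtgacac
Irf1: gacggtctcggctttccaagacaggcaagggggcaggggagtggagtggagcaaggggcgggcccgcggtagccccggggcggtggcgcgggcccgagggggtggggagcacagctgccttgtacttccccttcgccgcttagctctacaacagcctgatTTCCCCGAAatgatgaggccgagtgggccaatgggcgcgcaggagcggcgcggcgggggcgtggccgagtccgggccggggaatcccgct
Socs3: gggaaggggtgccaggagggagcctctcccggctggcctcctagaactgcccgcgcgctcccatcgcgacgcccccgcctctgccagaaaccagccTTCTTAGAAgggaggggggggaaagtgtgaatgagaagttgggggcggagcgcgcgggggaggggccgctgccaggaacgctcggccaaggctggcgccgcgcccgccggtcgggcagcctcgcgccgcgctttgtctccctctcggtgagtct
Socs1: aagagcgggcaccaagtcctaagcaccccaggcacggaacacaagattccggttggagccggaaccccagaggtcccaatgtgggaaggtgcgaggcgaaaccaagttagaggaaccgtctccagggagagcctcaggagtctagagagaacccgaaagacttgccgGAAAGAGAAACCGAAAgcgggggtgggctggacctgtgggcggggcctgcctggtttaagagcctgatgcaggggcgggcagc

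Library totals ran from 16334079 to 19686675 expected counts. Before any comparison, the overexpressed gene was checked. Tnfsf14 had 0, 148 and 122 counts in differentiated LIGHT libraries 1 to 3, 38, 53 and 58 in undifferentiated LIGHT libraries, 113, 0 and 0 in differentiated control libraries 1 to 3, and 0, 1 and 0 in undifferentiated control libraries. The libraries labelled differentiated LIGHT 1 and differentiated control 1 therefore contradict their labels, and they also stood apart from their own groups. Their counts differed from those of the other libraries in the group by 36.2 to 50.4 chi-square units a gene, where all other pairs of replicates gave 2.52 to 7.46. Results are for all 12 libraries as labelled, and counts of calls and the main changes are also given for the 10 left when these 2 are set aside. Summed over 10 adipocyte markers, expression was 15054 to 20650 CPM (counts scaled to library size with TMM factors) in differentiated LIGHT cells and 15291 to 20811 CPM in differentiated control cells, against 234 to 274 CPM in undifferentiated LIGHT cells and 239 to 269 CPM in undifferentiated control cells. Every differentiated library was thus far above every undifferentiated one. The ranges of the differentiated groups include the 2 contradicting libraries.

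With differentiation Irf7, Irf9, Stat2, Jak1, Il6st and Osmr fell in both lines, and Stat5a, Stat5b, Stat6, Jak3, Cish and Ifngr1 rose. In bulk RNA, fewer cells of a type and less RNA per cell cannot be told apart. In control cells 26 of the 36 tested members changed at an adjusted p under 0.05, 10 higher and 16 lower, by edgeR's quasi-likelihood test with Benjamini-Hochberg adjustment over 12993 genes. Across all tested genes 63.9% were called, 32.2% higher and 31.7% lower, so that the members' 72.2% is near the background and 44.4% of members lower stands beside 31.7%. In LIGHT cells 22 members changed (61.1%, with 58.6% of all genes called), 7 higher and 15 lower, against 29.5% of all genes higher and 29.1% lower. Without the 2 contradicting libraries the same 26 members were called in control cells (70.7% of all genes called), and 25 in LIGHT cells (64.1%), of which 21 were among the 22. The comparisons share libraries with one another: both undifferentiated groups serve in the comparison of the lines before differentiation as well.

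With the 2 contradicting libraries set aside, the genes that fell in both lines had log2 fold changes with differentiation of -2.87 in LIGHT cells and -1.97 in control cells for Irf7, -2.34 in LIGHT cells and -2.25 in control cells for Irf9, -1.5 in LIGHT cells and -2.13 in control cells for Irf5, -1.94 in LIGHT cells and -1.32 in control cells for Stat2. The receptor chains and kinases stood at -1.36 in LIGHT cells and -1.5 in control cells for Osmr, -0.91 in LIGHT cells and -0.73 in control cells for Il6st, -0.55 in LIGHT cells and -0.39 in control cells for Ifnar2, 0.99 in LIGHT cells and 0.91 in control cells for Ifngr1, -0.65 in LIGHT cells and -0.42 in control cells for Jak1 and 0.71 in LIGHT cells and 1.33 in control cells for Jak3. The rises of the STATs were 1.47 in LIGHT cells and 1.51 in control cells for Stat5a, 0.59 in LIGHT cells and 0.60 in control cells for Stat5b and 0.45 in LIGHT cells and 0.49 in control cells for Stat6. Among the inhibitors the values were 1.41 in LIGHT cells and 2.17 in control cells for Cish, -0.71 in LIGHT cells and -0.51 in control cells for Socs3, -0.78 in LIGHT cells and -1.28 in control cells for Socs5, -0.78 in LIGHT cells and -1.01 in control cells for Socs6 and -0.44 in LIGHT cells and -0.45 in control cells for Pias3. All of these passed the test in both lines, in the same direction as with the labels as given.

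Between the lines before differentiation, more members were higher in LIGHT cells than lower. Of the 36 tested, 14 changed (38.9%, with 26.5% of all genes called): 11 were higher (30.6%, against 12.3% of all genes) and 3 lower (8.33%, against 14.2%). Without the 2 libraries, 22 were called (44.4% of all genes called), 18 higher (50%, against 22.3% of all genes) and 4 lower (11.1%, against 22.1%), and they included all 14. Markers of preadipocyte fibroblasts moved with this comparison: summed over 10 genes, they had 24419 to 25877 CPM in undifferentiated LIGHT cells and 15952 to 17753 CPM in undifferentiated control cells, with 5 of the 10 higher and 1 lower in LIGHT cells. In the differentiated cells they had 19052 to 23349 CPM with LIGHT and 18417 to 25869 CPM in control, ranges that include the 2 contradicting libraries. Without these 2 libraries, 6 of the 10 were higher and 2 lower in LIGHT cells after differentiation. Col1a1, Col1a2, Col3a1 and Vim, each with 20548 or more counts in every library, made up most of the sums. The part of these markers in the result was not tested. After differentiation edgeR called 0 of 36 members and 0% of all genes with the labels as given. At an unadjusted p under 0.05 it had 3 members, among them Irf1 and Stat2, and 4.03% of all genes, and DESeq2 called 0 members. Without the 2 libraries 12 members were called after differentiation, with 31% of all genes called, a share close to the members' 33.3%. Of these, 8 were higher in LIGHT cells (22.2%, against 14.6% of all genes) and 4 lower (11.1%, against 16.4%). The change with differentiation differed between the lines, by the interaction term, for 6 members as labelled (16.7%, with 9.34% of all genes called), 1 positive against 5.08% of all genes and 5 negative against 4.26%. Without the 2 libraries it differed for 12 members (33.3%, with 31% of all genes), 4 positive against 14.9% and 8 negative against 16.1%.

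**Figure D1:**
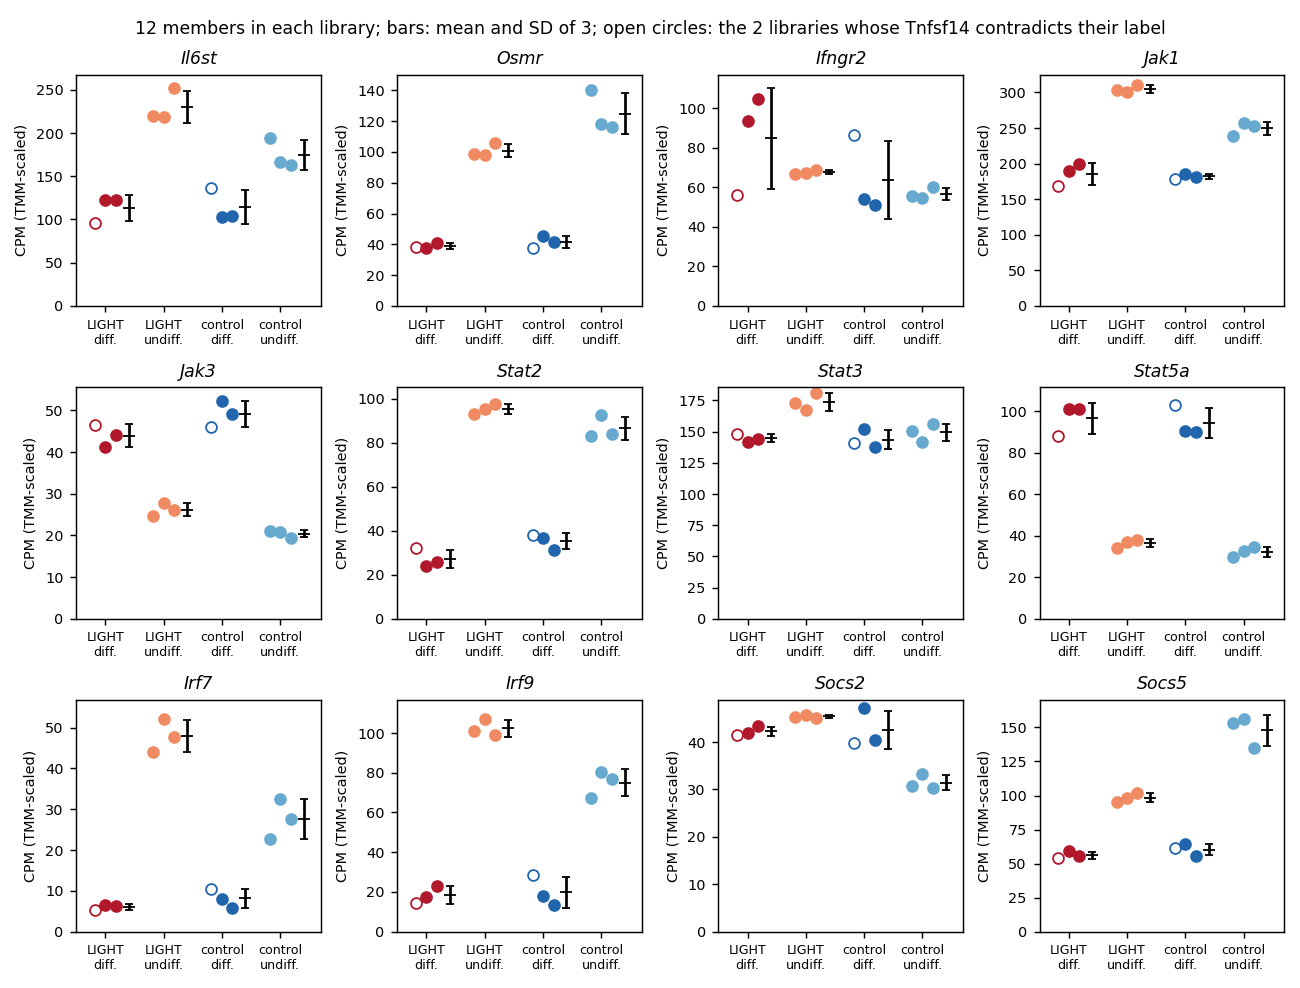
Expression of 12 members in each library, as TMM-scaled CPM on axes that start at 0, with differentiated LIGHT, undifferentiated LIGHT, differentiated control and undifferentiated control cells from left to right. Points are libraries, bars are the mean and SD of 3, and open points are the 2 libraries whose Tnfsf14 contradicts their labels. Irf7 lay between 5.3 and 10.5 CPM in the 6 differentiated libraries and between 22.6 and 52 CPM in the 6 undifferentiated ones.

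Among the receptor chains, Osmr fell most and Ifngr1 rose in both lines. Osmr, the chain that binds oncostatin M, had 38.3, 37.3 and 40.9 CPM in differentiated LIGHT cells, 98.5, 98.1 and 106 CPM in undifferentiated LIGHT cells, 37.5, 45.2 and 41.6 CPM in differentiated control cells, and 139.9, 118 and 116 CPM in undifferentiated control cells. The differentiated libraries were all below the undifferentiated ones, and before differentiation every LIGHT library was below every control library. The log2 fold change with differentiation was -1.38 ± 0.09 (SE) in LIGHT cells (adjusted p = 5.99e-08) and -1.59 ± 0.0901 in control cells (adjusted p = 1.31e-08). Between the undifferentiated lines Osmr was lower in LIGHT cells by a log2 fold change of -0.30 ± 0.0867 (adjusted p = 0.0223), a call lost when undifferentiated LIGHT 1 or 2 or undifferentiated control 1 was left out (adjusted p 0.0778 to 0.102).

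Il6st encodes gp130, the signalling chain shared by interleukin-6 family receptors. It had 96, 122 and 122 CPM in differentiated LIGHT cells, 219.8, 219 and 252 CPM in undifferentiated LIGHT cells, 137, 103 and 104 CPM in differentiated control cells, and 194, 166 and 163 CPM in undifferentiated control cells. It fell with differentiation by 1.02 on the log2 scale in LIGHT cells (SE 0.127, adjusted p = 1.9e-05) and by 0.61 in control cells (SE 0.127, adjusted p = 0.00107), with no overlap between stages in either line. Before differentiation it was 0.40 higher in LIGHT cells on the log2 scale (SE 0.126, adjusted p = 0.0332), but leaving out any undifferentiated LIGHT library or undifferentiated control 2 or 3 gave adjusted p-values of 0.0595 to 0.12. Lifr, which pairs with gp130 to bind leukaemia inhibitory factor, rose by 0.49 log2 units in control cells (SE 0.196, adjusted p = 0.0429). That call was lost when any of 8 libraries was left out, namely differentiated control 1, differentiated LIGHT 2 and the 6 undifferentiated libraries (adjusted p 0.0507 to 0.188), and without the 2 contradicting libraries the value was 0.23 (adjusted p = 0.0317). In LIGHT cells Lifr was called higher with differentiation only without the 2 contradicting libraries. Lifr had 36.8, 50.3 and 56.5 CPM in differentiated LIGHT cells and 35.6, 36.9 and 41 CPM in undifferentiated LIGHT cells. Differentiated control cells had 62.1, 37.3 and 37.3 CPM, and undifferentiated control cells 35.8, 32.1 and 29 CPM.

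Of the 4 interferon receptor chains, Ifngr1 rose and Ifnar2 fell with differentiation in both lines. Ifngr1, the ligand-binding chain for interferon gamma, had 68.9, 73.9 and 74.5 CPM in differentiated LIGHT cells, 37.2, 36.9 and 38.5 CPM in undifferentiated LIGHT cells, 74.1, 70.9 and 69.1 CPM in differentiated control cells, and 43.9, 34.8 and 34.8 CPM in undifferentiated control cells. The stages were far apart in both lines and the lines overlapped at both stages. Its log2 fold change with differentiation was 0.95 ± 0.0864 (SE) in LIGHT cells (adjusted p = 1.22e-06) and 0.92 ± 0.0865 in control cells (adjusted p = 1.3e-06). Ifnar2, a chain of the type I interferon receptor, fell by 0.66 on the log2 scale in LIGHT cells (SE 0.106, adjusted p = 0.000166) and by 0.29 in control cells (SE 0.106, adjusted p = 0.0302). The control call was lost without differentiated control 2 or 3 or any undifferentiated control library (adjusted p 0.0582 to 0.163). Ifnar2 was also higher in undifferentiated LIGHT cells, at 79, 81.4 and 84.9 CPM, against 62.7, 60.5 and 60.7 CPM in undifferentiated control cells (log2 fold change 0.42, SE 0.105, adjusted p = 0.012).

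Ifngr2, the signalling chain for interferon gamma, was split within the differentiated groups. It had 56, 93.6 and 105 CPM in differentiated LIGHT libraries 1 to 3 and 86.7, 54.3 and 50.9 CPM in differentiated control libraries 1 to 3, while undifferentiated LIGHT cells had 66.9, 67.5 and 69 CPM and undifferentiated control cells 55.8, 54.4 and 60.2 CPM. In each differentiated group the library that contradicts its label lay apart from the other 2, nearer to those of the other line. As labelled, the lines after differentiation differed by 0.41 log2 units (SE 0.216, adjusted p = 0.913). Without the 2 libraries the value was 0.91 (SE 0.0744, adjusted p = 3.17e-08), with the interaction at 0.64 (SE 0.0963, adjusted p = 5.09e-05). Ifnar1, the other type I chain, passed the test in no comparison as labelled. With the 2 libraries set aside it was higher in LIGHT cells after differentiation by 0.40 (SE 0.0718, adjusted p = 0.000319) and before it by 0.29 (SE 0.0583, adjusted p = 0.000492), on the log2 scale.

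Jak1 and Jak3 changed in opposite directions with differentiation. Jak1, the kinase used by both interferon receptors and by gp130, had 169, 189.9 and 199 CPM in differentiated LIGHT cells, 304, 300.0 and 311 CPM in undifferentiated LIGHT cells, 179, 186 and 181 CPM in differentiated control cells, and 239, 257 and 253 CPM in undifferentiated control cells. All undifferentiated libraries were above all differentiated ones, and the undifferentiated LIGHT libraries were above the undifferentiated control libraries. Jak1 fell by 0.71 on the log2 scale in LIGHT cells (SE 0.0654, adjusted p = 1.29e-06) and by 0.46 in control cells (SE 0.0653, adjusted p = 5.04e-05), and was higher in LIGHT cells before differentiation by 0.29 (SE 0.065, adjusted p = 0.00667). Jak1 overlaps Raver2 in the annotation.

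Jak3, the kinase known from common gamma chain receptors of lymphocytes, had 46.6, 41.2 and 44 CPM in differentiated LIGHT cells, 24.6, 27.8 and 26.1 CPM in undifferentiated LIGHT cells, 46, 52.2 and 49.2 CPM in differentiated control cells, and 21, 20.9 and 19.4 CPM in undifferentiated control cells. Before differentiation every LIGHT library was above every control library, and after it the lines overlapped. The rise was larger in control cells (log2 fold change 1.27, SE 0.0785, adjusted p = 2.8e-08) than in LIGHT cells (0.75, SE 0.0772, adjusted p = 3.75e-06), and the difference between these changes was itself called (interaction -0.52, SE 0.109, adjusted p = 0.0116). Jak3 overlaps Insl3 in the RefSeq annotation (GRCm38.p6), by whole gene spans and not by exons. The sources used here make no statement on strand, and whether the pair shares reads was not tested. Jak3 counts were not whole in 2 of 12 libraries. Jak2, which serves growth hormone and interferon gamma receptors, and Tyk2, which serves the type I interferon receptor, passed the test in no comparison as labelled. Jak2 had a log2 fold change with differentiation of -0.26 in LIGHT cells (adjusted p = 0.0792) and -0.25 in control cells (adjusted p = 0.0875), and without the 2 libraries -0.34 in LIGHT cells (adjusted p = 0.00156). Tyk2 stayed between 25.9 and 31.5 CPM in all 12 libraries.

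Stat2, which joins IRF9 in the interferon complex, fell with differentiation in both lines, and Stat5a, Stat5b and Stat6 rose. Stat2 had 32, 23.9 and 25.7 CPM in differentiated LIGHT cells, 93.1, 95.4 and 97.6 CPM in undifferentiated LIGHT cells, 38.2, 36.9 and 31.3 CPM in differentiated control cells, and 83, 92.5 and 83.9 CPM in undifferentiated control cells. The stages were well separated in both lines, and the lines overlapped after differentiation only through differentiated LIGHT 1. It fell by 1.81 on the log2 scale in LIGHT cells (SE 0.107, adjusted p = 2.42e-08) and by 1.29 in control cells (SE 0.105, adjusted p = 3.25e-07). The interaction of -0.53 had an adjusted p of 0.0438, which rose to between 0.0578 and 0.101 when any of 9 libraries was left out, that is each library except differentiated LIGHT 1 and differentiated control 1 and 3, and without both contradicting libraries it was -0.62 (adjusted p = 0.000288). Stat2 overlaps Apof in the annotation. The Stat2 promoter window is shown above with its ISRE match.

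Stat5a and Stat5b, which carry growth hormone and prolactin signals, rose by similar amounts in both lines. Stat5a had 88.1, 101 and 101 CPM in differentiated LIGHT cells, 34.3, 37.1 and 38.2 CPM in undifferentiated LIGHT cells, 103, 90.7 and 90 CPM in differentiated control cells, and 29.6, 32.8 and 34.4 CPM in undifferentiated control cells. The stages did not overlap, and the lines overlapped at both stages. The log2 fold change of Stat5a with differentiation was 1.40 ± 0.0853 (SE) in LIGHT cells (adjusted p = 3.22e-08) and 1.55 ± 0.086 in control cells (adjusted p = 1.05e-08), and that of Stat5b 0.63 ± 0.0703 in LIGHT cells (adjusted p = 7.17e-06) and 0.58 ± 0.0705 in control cells (adjusted p = 1.17e-05). Per length, Stat5a stood at 22.3, 26.9 and 26.8 FPKM in differentiated LIGHT cells and 26.9, 23.1 and 22.5 FPKM in differentiated control cells, where Stat5b stood at 13.4, 13.2 and 12.8 FPKM in differentiated LIGHT cells and 12.7, 12.4 and 11.7 FPKM in differentiated control cells. In undifferentiated LIGHT cells Stat5a was at 9.36, 10.2 and 10.6 FPKM and Stat5b at 8.71, 9.24 and 8.77 FPKM. In undifferentiated control cells Stat5a was at 8.25, 9.21 and 9.4 FPKM and Stat5b at 9.4, 8.13 and 8.97 FPKM. The level of Stat5a was thus above that of Stat5b in the 6 differentiated libraries and, by less, in the 3 undifferentiated LIGHT libraries, while in undifferentiated control cells the ranges overlapped. These 2 genes are near-identical copies with estimated counts that were not whole in 12 of 12 libraries, so how their shared reads were split is uncertain.

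Stat6, the factor for interleukin 4 and 13, rose by 0.45 on the log2 scale in LIGHT cells (SE 0.0673, adjusted p = 8.45e-05) and 0.40 in control cells (SE 0.0672, adjusted p = 0.000181). It overlaps Nab2 in the annotation. Stat3, the main factor below gp130, had 148, 142 and 144 CPM in differentiated LIGHT cells, 173, 167 and 181 CPM in undifferentiated LIGHT cells, 141, 152 and 138 CPM in differentiated control cells, and 150.4, 142 and 156 CPM in undifferentiated control cells. The undifferentiated LIGHT libraries were above all the others. Stat3 fell by 0.26 on the log2 scale in LIGHT cells (adjusted p = 0.00261), with a value of -0.06 in control cells (adjusted p = 0.41). Before differentiation it was 0.21 higher in LIGHT cells (adjusted p = 0.022), which no longer passed without undifferentiated LIGHT 1 or 3 or undifferentiated control 1 or 2 (adjusted p 0.0601 to 0.0972). Its interaction was -0.20 (adjusted p = 0.168), or -0.25 without the 2 contradicting libraries (adjusted p = 0.0277). Stat4, a factor known from lymphocytes, had at most 3 counts in any library and was not tested.

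**Figure D2:**
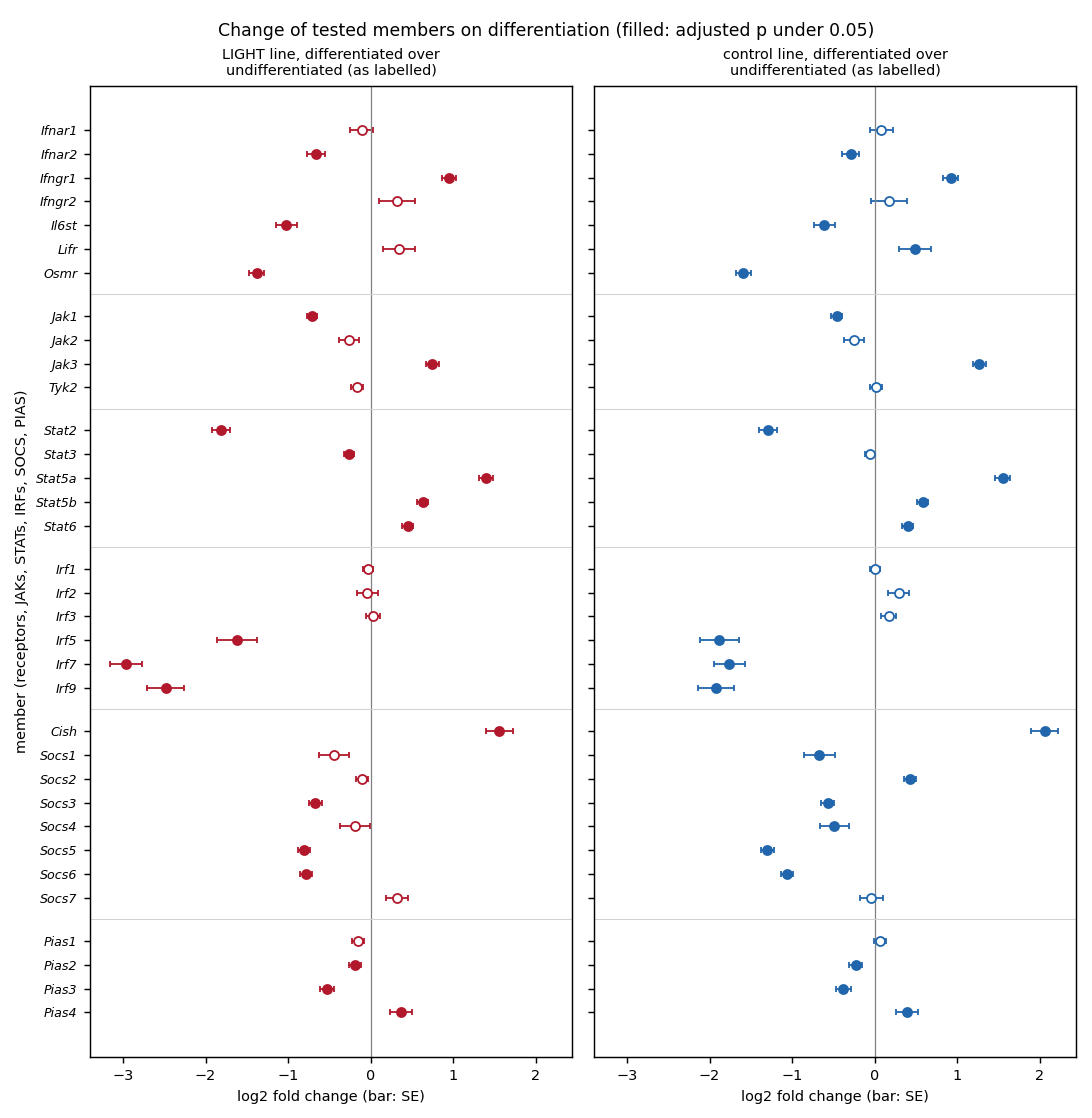
Log2 fold change with differentiation of tested members, by family, in LIGHT cells and in control cells, with bars of 1 SE and filled points where the adjusted p is under 0.05. Irf7 lies lowest in LIGHT cells at -2.96, and Cish lies at 2.06 in control cells.

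Of the IRFs, Irf7, Irf9 and Irf5 fell strongly with differentiation while Irf1, Irf2 and Irf3 passed the test in neither line. Irf7, the inducible factor that amplifies type I interferon production, had 5.3, 6.65 and 6.4 CPM in differentiated LIGHT cells, 44.1, 52 and 47.6 CPM in undifferentiated LIGHT cells, 10.5, 8.06 and 5.83 CPM in differentiated control cells, and 22.6, 32.4 and 27.6 CPM in undifferentiated control cells. Undifferentiated LIGHT cells were above every other library, and the lines overlapped after differentiation. Irf7 fell by 2.96 on the log2 scale in LIGHT cells (SE 0.193, adjusted p = 5.85e-08) and by 1.76 in control cells (SE 0.187, adjusted p = 3.74e-06). It was higher in LIGHT cells before differentiation by 0.80 (SE 0.171, adjusted p = 0.00502). The interaction of -1.20 (SE 0.265, adjusted p = 0.0148) was the largest in size among the members called as labelled, and without the 2 libraries it was -0.90 (SE 0.221, adjusted p = 0.0042).

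Irf9, the DNA-binding part of the complex with STAT2, had 14.6, 17.4 and 23.2 CPM in differentiated LIGHT cells, 101, 107 and 99 CPM in undifferentiated LIGHT cells, 28.4, 18 and 13.2 CPM in differentiated control cells, and 67.5, 80.4 and 77.1 CPM in undifferentiated control cells. It fell by 2.48 on the log2 scale in LIGHT cells (SE 0.225, adjusted p = 1.18e-06) and by 1.92 in control cells (SE 0.222, adjusted p = 7.92e-06). Before differentiation the lines did not overlap, but the difference of 0.45 (SE 0.207) had an adjusted p of 0.13, and 0.46 (SE 0.0877) without the 2 libraries had an adjusted p of 0.000292. Irf9 counts were not whole in 12 of 12 libraries, and how its estimated counts were made is not known. Irf5, known from macrophages, had 1.31, 1.69 and 1.77 CPM in differentiated LIGHT cells, 4.73, 4.87 and 5.15 CPM in undifferentiated LIGHT cells, 2.3, 1.33 and 1.46 CPM in differentiated control cells, and 5.6, 5.68 and 7.52 CPM in undifferentiated control cells. It fell by 1.62 in LIGHT cells (SE 0.238, adjusted p = 7.65e-05) and by 1.88 in control cells (SE 0.236, adjusted p = 1.64e-05), at low levels, and overlaps Tnpo3 in the annotation.

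Irf1, an activator of interferon-induced genes, and Irf3, which starts the interferon response to viral RNA, were higher in LIGHT cells before differentiation. Irf1 had 51.2, 50.2 and 49.5 CPM in undifferentiated LIGHT cells and 43.8, 44.5 and 44.4 CPM in undifferentiated control cells, and Irf3 had 37.2, 35.1 and 31.1 CPM in undifferentiated LIGHT cells and 25.5, 27.9 and 30.3 CPM in undifferentiated control cells. Neither overlapped between the lines. The log2 fold change was 0.19 ± 0.0605 (SE) for Irf1 (adjusted p = 0.0385) and 0.31 ± 0.0866 for Irf3 (adjusted p = 0.0211). Both calls depended on single libraries: the adjusted p of Irf1 was 0.0664 to 0.112 without any 1 of the 6 undifferentiated libraries, and that of Irf3 was 0.061 to 0.094 without replicate 1 or 2 of either undifferentiated group. Irf2, which competes with IRF1 for its sites, had an adjusted p of 0.061 before differentiation at a log2 fold change of 0.35, and 0.000215 at 0.36 without the 2 libraries. Irf4, with at most 2 counts in any library, and Irf8, with at most 7, were not tested.

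Leukocytes are known for high levels of several of these factors, so their markers were summed as well. Of 12 leukocyte symbols 7 were listed, and their sum was 7.92 to 9.04 CPM in differentiated LIGHT cells, 12.8 to 14 CPM in undifferentiated LIGHT cells, 8.08 to 8.37 CPM in differentiated control cells, and 19.2 to 20 CPM in undifferentiated control cells. Cd14, with 94 to 272 counts a library, made up most of the sum. Cd68 had 6 to 39 counts, Csf1r 2 to 23, Lyz2 0 to 39, Ptprc 0 to 11, Itgam 0 to 1 and Fcer1g 0 to 2. Of the 4 tested, 1 rose (Cd68) and 2 fell (Cd14 and Lyz2) with differentiation in LIGHT cells, the same 2 fell in control cells, and Cd14, Cd68 and Lyz2 were lower in LIGHT cells before differentiation. The sum was lower with differentiation in both lines and lower in LIGHT than in control cells before differentiation, where Irf7 was higher. Its part in the results was not tested.

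In the SOCS family Cish rose and Socs3, Socs5 and Socs6 fell in both lines. Cish, a STAT5 target that inhibits cytokine receptors, had 21.5, 14.9 and 17.1 CPM in differentiated LIGHT cells, 5.67, 6.23 and 6.17 CPM in undifferentiated LIGHT cells, 15.9, 18.4 and 20.4 CPM in differentiated control cells, and 5.14, 3.93 and 4.02 CPM in undifferentiated control cells. The stages did not overlap in either line. The log2 fold change was 1.56 ± 0.161 (SE) in LIGHT cells (adjusted p = 3.59e-06) and 2.06 ± 0.166 in control cells (adjusted p = 2.96e-07), with an interaction of -0.50 (adjusted p = 0.199), or -0.76 without the 2 libraries (adjusted p = 0.0067). Socs2, the inhibitor of growth hormone receptor signalling, had 41.6, 41.9 and 43.4 CPM in differentiated LIGHT cells, 45.3, 45.8 and 45.1 CPM in undifferentiated LIGHT cells, 39.9, 47.1 and 40.4 CPM in differentiated control cells, and 30.7, 33.3 and 30.4 CPM in undifferentiated control cells. The undifferentiated control libraries were below all the others. Socs2 rose in control cells by 0.43 (SE 0.0733, adjusted p = 0.000208), had a value of -0.10 in LIGHT cells (SE 0.0723, adjusted p = 0.24), and was higher in LIGHT cells before differentiation by 0.53 (SE 0.0731, adjusted p = 0.000321), with an interaction of -0.54 (SE 0.103, adjusted p = 0.00719).

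Socs5, known as an inhibitor of interleukin 4 and EGF receptor signalling, had 54, 59.1 and 55.4 CPM in differentiated LIGHT cells, 95.3, 98.3 and 102 CPM in undifferentiated LIGHT cells, 61.1, 64.1 and 55.7 CPM in differentiated control cells, and 153, 156 and 135 CPM in undifferentiated control cells. The lines were far apart before differentiation and overlapped after it. It fell by 0.81 on the log2 scale in LIGHT cells (SE 0.0753, adjusted p = 1.49e-06) and by 1.30 in control cells (SE 0.0755, adjusted p = 1.6e-08). Socs5 was lower in LIGHT cells before differentiation by a difference of -0.59 on the log2 scale (SE 0.074, adjusted p = 0.000173), and its interaction was 0.49 (SE 0.106, adjusted p = 0.0134), the only positive one among the 6 called. Socs6, an inhibitor of receptor tyrosine kinase signalling, fell by 0.78 in LIGHT cells (SE 0.0718, adjusted p = 1.27e-06) and by 1.06 in control cells (SE 0.0718, adjusted p = 5.73e-08). It was lower in LIGHT cells before differentiation, at a log2 fold change of -0.28 (adjusted p = 0.0119), with adjusted p-values of 0.0556 to 0.0597 when undifferentiated LIGHT 1 or 2 was left out.

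Socs3, the feedback inhibitor of gp130, had 40.3, 39.2 and 35.1 CPM in differentiated LIGHT cells, 56.2, 61.3 and 65.3 CPM in undifferentiated LIGHT cells, 35.8, 38 and 38.9 CPM in differentiated control cells, and 52.8, 54.3 and 59.7 CPM in undifferentiated control cells. It separated the stages and not the lines. The log2 fold change was -0.67 ± 0.08 (SE) in LIGHT cells (adjusted p = 1.26e-05) and -0.57 ± 0.0802 in control cells (adjusted p = 4.8e-05). Socs1, the inhibitor of interferon receptors, had 10.4, 17.5 and 18.3 CPM in differentiated LIGHT cells, 19.8, 20.2 and 22.8 CPM in undifferentiated LIGHT cells, 14.1, 11.6 and 13.3 CPM in differentiated control cells, and 18.9, 18.7 and 24.6 CPM in undifferentiated control cells. It fell by 0.67 in control cells (SE 0.186, adjusted p = 0.00678), with -0.44 in LIGHT cells (SE 0.184, adjusted p = 0.0558), and the lines overlapped after differentiation through differentiated LIGHT 1. Setting the 2 libraries aside, Socs1 was higher in LIGHT cells after differentiation by 0.51 (SE 0.141, adjusted p = 0.00946). Socs4 fell by 0.49 in control cells (adjusted p = 0.0297), a call lost without differentiated control 2 or 3 or any undifferentiated control library (adjusted p 0.0523 to 0.128). Socs7 passed the test in no comparison as labelled, and ran from 10.1 to 17.9 CPM over the 12 libraries. Before differentiation it had a log2 fold change of LIGHT over control cells of -0.35 (adjusted p = 0.0867) as labelled, and was lower in LIGHT cells without the 2 libraries (-0.33, SE 0.122, adjusted p = 0.0316).

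Pias3 fell and Pias4 rose with differentiation in both lines, by small amounts. Pias3, an inhibitor of STAT3, had 32.8, 39.4 and 38.9 CPM in differentiated LIGHT cells, 53.6, 52.3 and 54.5 CPM in undifferentiated LIGHT cells, 38.8, 32.9 and 31.7 CPM in differentiated control cells, and 43.7, 44.3 and 46.5 CPM in undifferentiated control cells. The undifferentiated LIGHT libraries were the highest and the stages did not overlap. It fell by 0.53 on the log2 scale in LIGHT cells (SE 0.0881, adjusted p = 0.000221) and by 0.38 in control cells (SE 0.0888, adjusted p = 0.00229). Before differentiation it was higher in LIGHT cells by 0.25 (adjusted p = 0.0495), which became 0.054 to 0.142 without any 1 of 8 libraries, the 6 undifferentiated ones and differentiated LIGHT 2 and 3. Pias3 overlaps Nudt17 in the annotation. Pias4, a SUMO ligase, rose by 0.37 in LIGHT cells (adjusted p = 0.0343) and 0.39 in control cells (adjusted p = 0.0245), although in control cells the stages overlapped through differentiated control 1. Its LIGHT call was lost without differentiated LIGHT 1 or 3 or any undifferentiated LIGHT library (adjusted p 0.0549 to 0.12) and its control call without differentiated control 2 or 3 or undifferentiated control 1 (adjusted p 0.0697 to 0.104). Pias2 fell by 0.19 in LIGHT cells (adjusted p = 0.0488) and by 0.23 in control cells (adjusted p = 0.0156). The LIGHT call was lost without any 1 of 10 libraries, all but differentiated LIGHT 2 and differentiated control 1 (adjusted p 0.0596 to 0.192), and the control call without differentiated control 2 or 3 or undifferentiated control 1 (adjusted p 0.0554 to 0.0666). Pias1 stayed between 22.5 and 27.4 CPM and passed the test in no comparison.

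**Figure D3:**
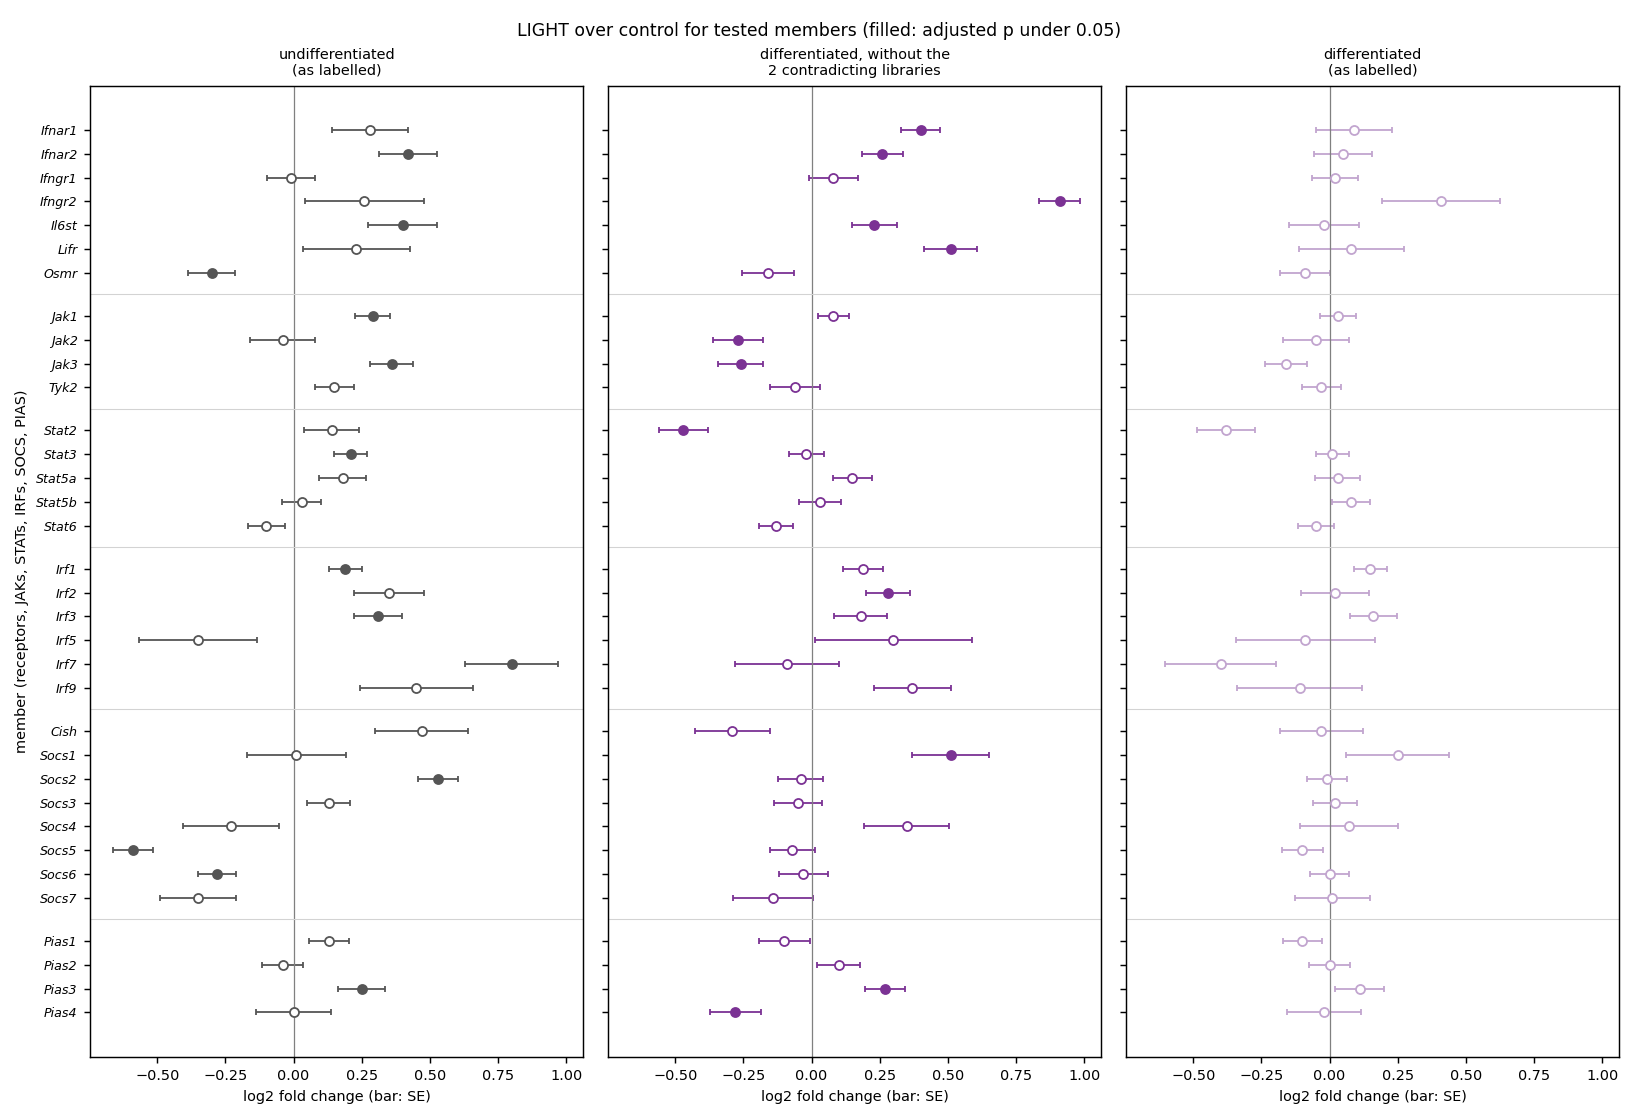
Log2 fold change of LIGHT over control cells for tested members, before differentiation as labelled (left), after it without the 2 contradicting libraries (middle) and after it as labelled (right), with bars of 1 SE and filled points where the adjusted p is under 0.05. Irf7 stood at 0.80 before differentiation, and Ifngr2 after it at 0.91 without the 2 libraries and 0.41 as labelled.

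After differentiation, setting the 2 contradicting libraries aside left 2 libraries per group, in which 5 of 7 receptor chains were higher in LIGHT cells (14.6% of all genes were higher), namely Ifngr2, Lifr (log2 fold change 0.51, SE 0.0962, adjusted p = 0.000449), Ifnar1, Ifnar2 (0.26, SE 0.0747, adjusted p = 0.0122) and Il6st (0.23, SE 0.0827, adjusted p = 0.04). Before differentiation, without the same 2 libraries, 5 of 7 receptor chains and 5 of 7 tested IRFs were higher in LIGHT cells, where 22.3% of all genes were. Osmr was lower in that fit, and 3 of 6 tested STATs and 2 of 4 JAKs were also higher. Of 8 SOCS family genes 2 were higher and 3 lower, and of 4 PIAS genes 1 was higher. As labelled, 2 receptor chains were higher and 1 lower, and 3 IRFs were higher, where 12.3% of all genes were. No test of the receptor chains against the other members was made. After differentiation, without the 2 libraries, the other members higher in LIGHT cells were Socs1, Irf2 (0.28, SE 0.0805, adjusted p = 0.0112) and Pias3 (0.27, SE 0.0747, adjusted p = 0.00917). Lower were Stat2 (-0.47, SE 0.0914, adjusted p = 0.000675), Jak2 (-0.27, SE 0.092, adjusted p = 0.0335), Jak3 (-0.26, SE 0.0816, adjusted p = 0.0214) and Pias4 (-0.28, SE 0.0931, adjusted p = 0.0288). Irf7 had a value of -0.09 (SE 0.192, adjusted p = 0.777) and Irf9 of 0.37 (SE 0.142, adjusted p = 0.0531). Of the 10 adipocyte markers 6 were called in the same fit, all lower in LIGHT cells, with 16.4% of all genes lower. The median log2 fold change over the 10 was -0.34. The part of these markers in the results was not tested.

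The order of the members by level per length differed between the stages. In undifferentiated control cells the mean level was highest for Ifnar2 (52.7 ± 0.56 FPKM, SD, n = 3) and Jak1 (50.4 ± 1.81 FPKM), with the lowest Ifnar2 library at 52.2 and the highest Jak1 library at 52.1 FPKM. Stat3 and Irf9 also ranked high (35.6 ± 1.41 and 34.4 ± 2.92 FPKM), and their spreads overlapped. Irf9 stood among the 5 highest members there, at 31.2 to 37 FPKM, and at 44.9 to 48.3 FPKM in undifferentiated LIGHT cells. It was at 6 to 10 FPKM in differentiated LIGHT cells and 5.6 to 12.2 FPKM in differentiated control cells. Ifngr1, at 33.1 to 37.6 FPKM in differentiated LIGHT cells and 32.8 to 36.8 FPKM in differentiated control cells, was at 19.1 to 20.2 FPKM in undifferentiated LIGHT cells and 18.2 to 23.3 FPKM in undifferentiated control cells. At the low end Irf5 reached at most 3.77 FPKM in any library.

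**Figure D4:**
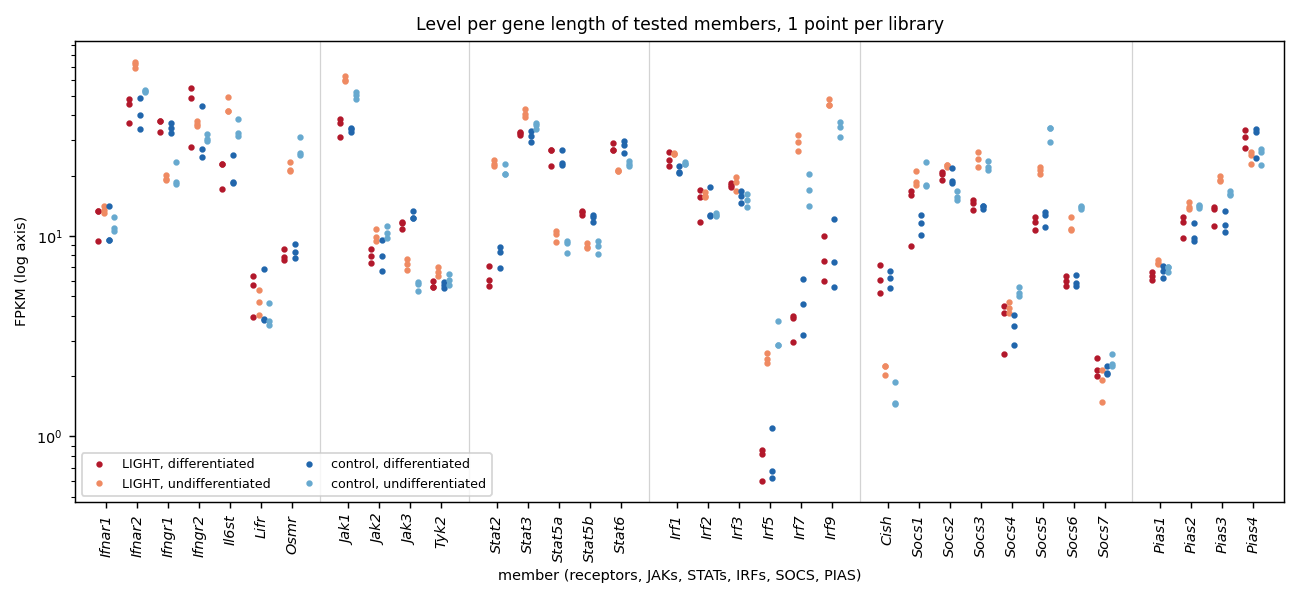
Level of tested members in FPKM, as the authors deposited it, on a log axis with 1 point per library, and differentiated LIGHT, undifferentiated LIGHT, differentiated control and undifferentiated control cells from left to right for each gene. Irf9 lies at 31.2 FPKM or more in the 6 undifferentiated libraries and at 12.2 FPKM or less in the 6 differentiated ones.

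Other genes of the pathway were taken from lists by role, whose counts stand beside 29.5% of all genes higher and 29.1% lower with differentiation in LIGHT cells and 32.2% higher and 31.7% lower in control cells. Without the 2 libraries these shares were 32.3% higher and 31.9% lower in LIGHT cells and 35.8% higher and 34.9% lower in control cells. Of 26 ligands 18 were listed and 9 tested. With differentiation 3 were higher and 4 lower in LIGHT cells (77.8% called, with 58.6% of all genes), and 2 higher and 5 lower in control cells (77.8%, with 63.9% of all genes). Setting the 2 libraries aside gave 3 higher and 5 lower in LIGHT cells, with the counts in control cells as above. Ctf1, the cardiotrophin that signals through gp130 and LIFR, rose by 0.84 on the log2 scale (SE 0.151, adjusted p = 0.000376) in LIGHT cells and 1.10 (SE 0.152, adjusted p = 3.71e-05) in control cells. The list also held Csf1, the macrophage growth factor, whose receptor is itself a tyrosine kinase and not a chain that relies on JAKs. Csf1 fell by 1.98 in control cells (SE 0.246, adjusted p = 1.52e-05) and is included in the ligand counts. Before differentiation 4 of the 9 ligands were lower in LIGHT cells, with 14.2% of all genes lower, among them Clcf1 (-0.60) and Csf1 (-0.84). The interferon genes Ifnb1 and Ifna4 had 0 to 1 counts in any library.

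Of 28 further receptor chains that signal through JAKs, 17 were tested. With differentiation 7 were higher and 5 lower in LIGHT cells (70.6% called), and 8 higher and 3 lower in control cells (64.7%), shares near those of all genes. With the 2 libraries set aside there were 8 higher and 5 lower in LIGHT cells and 8 higher and 4 lower in control cells. Ghr, the growth hormone receptor that uses JAK2 and STAT5, rose by 0.45 on the log2 scale (SE 0.0539, adjusted p = 1.24e-05) in LIGHT cells and 1.28 (SE 0.0548, adjusted p = 1.06e-09) in control cells, with a called interaction of -0.83 (SE 0.0763, adjusted p = 0.000193). It was higher in LIGHT cells before differentiation by 0.69 (SE 0.0544, adjusted p = 8.5e-06). Il4ra, the receptor chain that uses STAT6, fell by 1.38 in LIGHT cells (SE 0.0997, adjusted p = 1.47e-07) and by 2.18 in control cells (SE 0.0987, adjusted p = 1.68e-09), while Stat6 itself rose in both lines.

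Genes known to be induced by interferon fell with differentiation in both lines. Of 40 listed, 38 were tested, and 0 were higher and 35 lower in LIGHT cells (median log2 fold change -2.19, with -0.00 over all genes), against 1 higher and 32 lower in control cells (median -1.67, with 0.00 over all genes). Bst2, which tethers budding virus, fell by 2.45 in LIGHT cells (SE 0.131, adjusted p = 1.06e-08) and by 2.00 in control cells (SE 0.13, adjusted p = 4.05e-08), and the chemokine Ccl5 fell by 3.48 in LIGHT cells (SE 0.183, adjusted p = 8.69e-09) and by 3.03 in control cells (SE 0.174, adjusted p = 1.39e-08). Before differentiation 12.3% of all genes were higher and 14.2% lower in LIGHT cells as labelled, and 22.3% and 22.1% without the 2 libraries. Of the 38, 12 were higher and 0 lower in LIGHT cells as labelled (median 0.42, with -0.01 over all genes), and 23 and 0 without the 2 libraries. Ifi44 (1.05, SE 0.189, adjusted p = 0.00184) and the immunoproteasome subunits Psmb8 (0.80, SE 0.146, adjusted p = 0.00199) and Psmb9 (1.26, SE 0.267, adjusted p = 0.0047) were among them. After differentiation edgeR called 0 of the 38 as labelled (median -0.11), with 3 at an unadjusted p under 0.05 beside 4.03% of all genes, and DESeq2 called 0. Without the 2 libraries 12 were higher and 2 lower in LIGHT cells (median 0.26), with 14.6% of all genes higher and 16.4% lower.

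Of 22 tested sensors and kinases upstream of the IRFs, 4 were higher and 9 lower with differentiation in LIGHT cells (59.1% called, near the 58.6% of all genes) and 7 higher and 11 lower in control cells (81.8%, with 63.9% of all genes). Setting the 2 libraries aside, these were 4 and 9 in LIGHT cells and 8 and 10 in control cells. Zbp1, a nucleic acid sensor, fell by 3.56 (SE 0.301, adjusted p = 6.22e-07) in LIGHT cells, and Ticam1, the adaptor of TLR3, rose by 0.93 in control cells (SE 0.0895, adjusted p = 1.6e-06). Of 23 tested phosphatases and ubiquitin or SUMO regulators, 5 were higher and 8 lower in LIGHT cells (56.5% called) and 4 higher and 12 lower in control cells (69.6%), shares near those of all genes. The 24 tested without the 2 libraries gave 6 higher and 10 lower in LIGHT cells and 5 higher and 12 lower in control cells. The adaptor Sh2b2 rose by 3.97 in LIGHT cells (SE 0.2, adjusted p = 5.84e-09) and 3.24 in control cells (SE 0.19, adjusted p = 1.71e-08), and Usp18, the interferon-induced peptidase that also inhibits IFNAR2, fell by 3.39 in LIGHT cells (SE 0.289, adjusted p = 6.54e-07). Of 23 tested targets of STAT3 and STAT5, 11 were higher and 6 lower with differentiation in each line (73.9% called, with 58.6% of all genes in LIGHT and 63.9% in control cells). Without the 2 libraries 11 were higher and 7 lower in LIGHT cells and 12 higher and 6 lower in control cells (78.3% in each line, with 64.1% of all genes called in LIGHT and 70.7% in control cells). The list was led by the acute-phase genes Serpina3n (5.45 in LIGHT cells and 5.80 in control cells) and Hp (5.81 in LIGHT cells and 5.54 in control cells), while Ccnd1, which encodes cyclin D1, fell by 2.46 in control cells (SE 0.101, adjusted p = 7.43e-10). Between the lines as labelled, 7 of these targets were called before differentiation (30.4%, with 26.5% of all genes) and 0 after it. The interaction was called for 6 (26.1%, with 9.34%). Without the 2 libraries 15 were called before differentiation (65.2%, with 44.4%), 8 higher and 7 lower. After it 14 were called (60.9%, with 31%), 9 higher and 5 lower, and for the interaction 13 (56.5%, with 31%).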

How the data were processed

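TRIzol RNA of 12 samples of 3T3-L1 cells was sequenced on an Illumina HiSeq, per the labels. Each deposited table holds, per the file headers, the authors' expected counts and FPKM for each gene. 83.6 to 84.5% of the expected counts in a library were whole numbers. The submitters' processing notes name the build mm8. The aligner, the counter and its handling of strand do not appear in the sources used here. Genes without a symbol held 4.23 to 5.24% of counts.

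Tables were joined by gene ID, a gene missing from a table was set to 0, and counts were rounded. Genes were kept by filterByExpr (minimum count 10). edgeR 4.0.16 with limma 3.58.1 (R 4.3.3) gave TMM scaling and 1 quasi-likelihood fit over the 4 groups, with p-values adjusted over all tested genes and a threshold of 0.05. The fit was tested on simulated data with the same dispersion for every gene and no library that contradicts its label. The interaction was not simulated. DESeq2 1.42.0, other scalings and filters, each library left out, and the 10 libraries left without the contradicting 2 were alternatives. The floor of 3 counts equals 0.152 to 0.184 CPM, and covers counting error only. A few genes, members included, count in the totals and are not reported here. Every other member is reported. In the pathway lists the 3 genes with the smallest p per comparison could be named. Members and lists were chosen with earlier results of these data known. Same-numbered libraries of different groups were not paired, since their deviations from the group means correlated at -0.05 to 0.10 outside the differentiated groups' own pairs. Between the 2 differentiated groups the values were -0.62, -0.34 and -0.29 for replicates 1, 2 and 3. Each of these groups holds a contradicting library numbered 1, so those values cannot show whether replicates were paired. Promoter sequences and overlapping genes came from RefSeq (GRCm38.p6), matched by gene ID. No genome of the build mm8 was used here.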

Additional observations from a re-analysis of the deposited data

Results flagged for a closer look

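The change with differentiation differed between LIGHT and control cells, by edgeR's test of the interaction term (the log2 change in LIGHT cells minus that in control cells, adjusted p under 0.05), for 6 members as labelled, among them Irf7 (-1.20), Socs2 (-0.54), Stat2 (-0.53), Jak3 (-0.52) and Socs5 (0.49). Without the 2 libraries that contradict their labels these stood at -0.90 for Irf7, -0.58 for Socs2, -0.62 for Stat2, -0.63 for Jak3 and 0.51 for Socs5. Another 6 were then called: Cish (-0.76), Stat3 (-0.25), Jak1 (-0.22), Ifngr2 (0.64), Socs4 (0.57) and Socs1 (0.48). The share of members called was 16.7% as labelled, with 9.34% of all genes called, and 33.3% without the 2 libraries, near the 31% of all genes. Groups held 3 libraries, too few for a test of single outlying libraries.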

How the results depend on the processing

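The pairs of a member and a comparison counted here were those called as labelled or without the 2 contradicting libraries. Pairs called in neither fit were left out. Over these 98 pairs, 1944 values were recomputed under other settings: 1765 kept their direction and side of the threshold, 103 fell below it, 56 passed it and 20 changed sign. Before differentiation, 14 members were called between the lines in the 4-group fit, 23 when only the 2 groups were fitted, 22 without the 2 contradicting libraries, and 7 to 18 when 1 library was left out. Over all genes these counts were 3446, 5601, 5836 and 2238 to 4280. After differentiation 0 members and 0 genes were called as labelled. DESeq2 called 0 members and 1 gene, and without the 2 libraries 12 members and 4079 genes were called. For the interaction, 6 members became 12 without the 2 libraries and 5 to 6 with 1 library left out, and 1214 genes became 4077 without the 2 libraries, 747 with a replicate block and 675 to 1868 with 1 library left out.

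With the replicate number as a block, 22 members were called for differentiation in LIGHT cells, 23 in control cells, 11 between the lines before differentiation, 0 after it and 5 for the interaction. Over all 12993 tested genes the block gave 7220 calls for differentiation in LIGHT cells, against 7612 in the main fit. In control cells it gave 7931 against 8307, and between the lines before differentiation 2834 against 3446. Values of the comparison after differentiation that changed sign were all near 0 as labelled. Il6st gave 0.01 with library totals as scaling, 0.23 without the 2 libraries and -0.09 to 0.13 with 1 library left out, and Pias4 0.00 with library totals and -0.18 to 0.09. With 1 library left out, Ifnar2 ran from -0.04 to 0.17, Irf2 from -0.09 to 0.17, Jak2 from -0.18 to 0.09, Lifr from -0.06 to 0.36, and the interaction of Ifngr2 from -0.03 to 0.42. The causes were not tested. Library totals moved the median of all genes by -0.11 for differentiation in control cells and -0.08 in LIGHT cells. Irf4, Irf8 and Stat4 had too few counts to be tested at this depth.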
